A study of Saccharomyces cerevisiae with 4 samples.

Results

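The response of yeast cells lacking HAA1 was compared between high and low copper. For each gene the log ratio of null over wild type was averaged over the 2 arrays titled high copper and, separately, over the 2 arrays titled low copper, and the second mean was subtracted from the first. All 4 arrays of the series, of 4 in all, entered this difference, and 5137 of the 5574 named genes on the array were measured on each of them. Every array was a spotted DNA array of Saccharomyces cerevisiae hybridised with 2 RNA samples. In the high copper group, Cy5 marked total RNA of lpz8 null cells grown in high copper and Cy3 marked total RNA of wild-type cells. In the low copper group, Cy5 marked total RNA of lpz8 null cells grown in low copper, again beside Cy3-marked wild-type RNA. One array of each group was titled a repeat, and in the sentences below the array comes first and its repeat second. The labels gave no copper concentration, strain background or growth stage, no copper level for the wild-type cells, and no separate cultures for the repeats. Spread between repeats, on which the p-values rest, may thus be technical alone. No array had the dyes exchanged.

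HAA1, read here as the gene called lpz8 in the labels because the series title names Haa1, encodes a transcription factor whose DNA-binding domain resembles that of the copper-sensing factors Ace1 and Mac1. In budding yeast, Ace1 turns on metallothionein genes when copper is plentiful, and Mac1 turns on copper uptake genes when it is scarce. Haa1 itself is best known for the response to weak acids, where it activates genes of membrane transporters and cell wall proteins. Copper also bears on iron, because the high-affinity iron uptake oxidase Fet3 needs copper, and excess copper damages proteins that heat shock chaperones refold.

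Values are log2 ratios after each array was centred on its median. A positive ratio means more RNA in null cells than in wild-type cells, and a positive difference means that the ratio was higher in high copper than in low copper. A difference can come from null cells or from wild-type cells, and these cannot be told apart in the ratio. HAA1 itself stood at -4.15 and -6.96 in high copper, against -7.35 on the low copper repeat array alone, since the other low copper array held no value for its spot. The null cells were thus low in the transcript in both conditions, and with 1 array in low copper no difference was formed.

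The arrays were unequal. The high copper array and its repeat held 8318 and 8409 values, against 7254 and 8353 for the low copper array and its repeat, out of 8832 spots. The SD over gene values was 0.387 and 0.381 in high copper, against 0.656 and 0.346 in low copper. On the low copper array 102 genes lay more than 2 below 0, where the other 3 arrays had 9 to 16. Across genes, which are not independent replicates, Pearson's r was 0.708 between the high copper arrays, against 0.460 between the low copper arrays, and 0.309 to 0.484 between arrays of different conditions. On the high copper repeat array the values of 528 neighbouring spots did not match their positions. Read in place, they had a Spearman correlation of -0.017 with the mean of the remaining arrays, and read 24 spots further on, one of 0.546, while spots outside this run reached 0.574 in place. This run and the spots after it touched 351 of the tested genes. Genes named from it are given separately. Counts over all genes and over gene lists include them at their deposited positions unless stated otherwise.

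No gene passed the limma test of high minus low copper at a Benjamini-Hochberg adjusted p of 0.05, which is 0% of the 5137 genes tested. The lowest adjusted p-values, 0.0564, belonged to BTN2 and RPL31B, and 792 genes (15.4%) had an unadjusted limma p under 0.05. Without the low copper array 22 genes passed and without its repeat 743 did, where the high copper pair alone gave the spread, and without either high copper array 0 did. Both high copper values lay above both low copper values for 1297 genes (25.2%) and below both for 1387 genes (27.0%), while the ranges of the remaining 2453 genes overlapped. With the genes of the displaced run left out, 1264 of 4786 genes lay above (26.4%) and 1270 below (26.5%). Without centring, the split was 1960 above and 858 below, since the median of all differences moved to 0.12. With 2 arrays against 2 the smallest two-sided p of an exact permutation test is 0.333, so such a separation is a description and not a test. Below, genes are named if their conditions did not overlap in this way, and the words above and below refer to that separation.

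Large differences were few. A separation with a difference of at least 1 was found for 72 genes above (1.40%) and for 26 genes below (0.506%). The displaced run touched 2 of the genes above and 7 of those below, which were taken at their deposited positions. In 55 of these 98 genes the 2 arrays of 1 condition were themselves more than 1 apart, 10 of them in high copper and 45 in low copper. In 38 of the 72 genes above, the low copper array lay more than 1 below its own repeat. The remaining 43 genes, 29 above and 14 below, had both conditions within 1, and in 22 of them the high copper values lay on the other side of 0 from the low copper values.

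**Figure D1:**
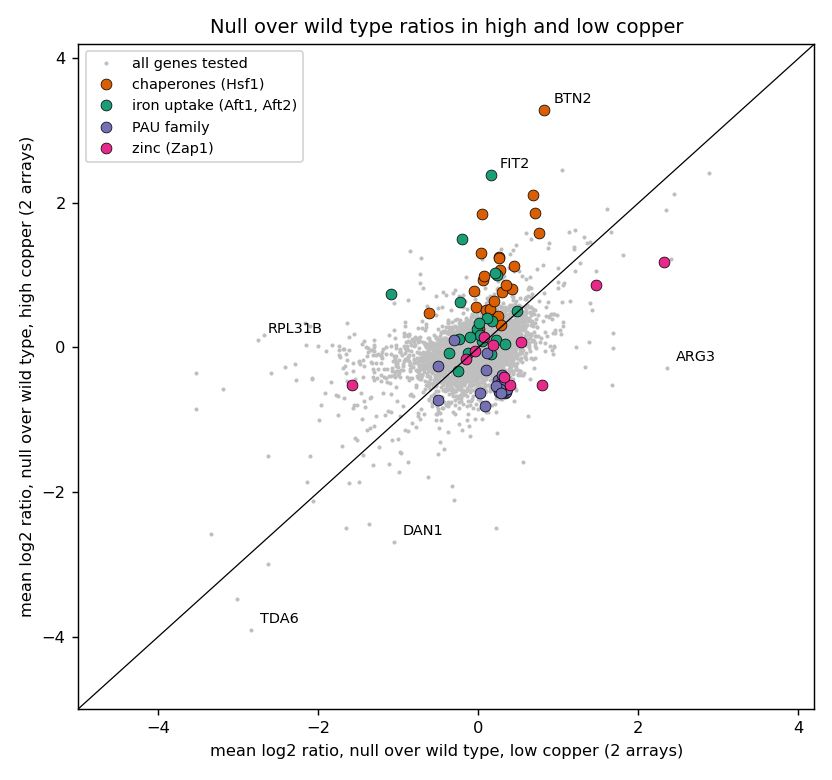
Mean log2 ratio of null over wild type in high copper (y axis, 2 arrays) against that in low copper (x axis, 2 arrays) for the 5137 genes tested (grey). Coloured points mark 4 gene lists and the line marks equal ratios. Most chaperone genes sit above the line, most genes of the PAU family below it, and the grey points spread further along the low copper axis on the negative side.

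The gene with the lowest unadjusted limma p (1.52e-05) was BTN2, whose product collects misfolded proteins for sorting and refolding. Its ratio was 3.34 and 3.22 in high copper, against 0.81 and 0.83 in low copper. RNA of BTN2 was therefore higher in null than in wild-type cells on all 4 arrays, and its ratio in high copper was 5.50 times that in low copper (difference 2.46 ± 0.11, moderated SE, n = 2 arrays each, limma adjusted p = 0.0564). RPL31B, which encodes a protein of the large ribosomal subunit, had the same adjusted p. Its ratio was 0.17 and 0.03 in high copper, against -2.87 and -2.63 in low copper, so it was near 0 in high copper and far below 0 in low copper (difference 2.86 ± 0.14, limma adjusted p = 0.0564). This value rests on 1 of its 2 spots, since the other held no values, and the values of its near-identical copy overlapped between conditions. Both genes passed the limma threshold, with an adjusted p of 0.0443 each, once the displaced run described above was moved back, and they were the only 2 of 5148 genes to do so (0.0389%). Over all alternative settings their limma adjusted p ran from 0.00107 to 0.647 for BTN2 and from 0.000852 to 0.647 for RPL31B.

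Other wide separations, in which the arrays of each condition lay within 1 of each other, were found in genes of iron uptake, protein folding and ubiquinone synthesis. FIT2, a cell wall mannoprotein that holds iron-siderophore complexes, stood at 2.16 and 2.62 in high copper, against 0.19 and 0.12 in low copper (difference 2.23 ± 0.19, limma adjusted p = 0.224). COQ1, which makes the isoprenoid tail of ubiquinone, stood at 1.77 and 0.89 in high copper, against -1.05 and -0.64 in low copper. It was thus above 0 in high copper and below 0 in low copper (difference 2.18 ± 0.35, limma adjusted p = 0.231). ARN1, a siderophore-iron transporter, crossed 0 in the same way, at 0.46 and 1.01 in high copper, against -1.17 and -1.02 in low copper (difference 1.83 ± 0.22, limma adjusted p = 0.224). Another ARN1 spot, with no value on the low copper array, read -0.11 and 1.15 in high copper, against -1.09 on the low copper repeat array. HSP78, a mitochondrial disaggregase, stood at 2.00 and 1.70 in high copper, against -0.41 and 0.49 in low copper (difference 1.81 ± 0.34, limma adjusted p = 0.256), although its 2 spots read -1.31 and 0.48 on the low copper array.

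In 8 of the 15 highest differences the low copper array lay more than 1 below its repeat. These were VLD1, VAC8, RAD34, SWC7, SKI3, BSC4, RFA1 and PEP1, which share no list. RAD34 and RFA1 act in DNA repair, PEP1 sorts vacuolar enzymes, and SWC7 belongs to the SWR1 chromatin remodeller. Their differences ran from 1.76 to 2.85, and without that array from 0.12 to 1.32, with all but SWC7 at or under 0.75. VLD1 shows the pattern, at 0.30 and 0.04 in high copper, against -5.16 and -0.20 in low copper. VAC8, an armadillo-repeat protein of the vacuole membrane, stood at 0.40 and 0.28 in high copper, against -4.40 and 0.07 in low copper. SKI3, a subunit of the Ski complex of RNA decay, stood at -0.14 and -0.30 in high copper, against -4.25 and -0.34 in low copper. In DAL81, a regulator of nitrogen degradation genes, it was the low copper repeat array that stood apart, with 1.39 and 1.09 in high copper, against 0.23 and -1.67 in low copper. The limma adjusted p of these 9 genes ran from 0.279 to 0.490.

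ARG3, the ornithine carbamoyltransferase of arginine synthesis, had the lowest difference among genes outside the displaced run. Its ratio was -0.38 and -0.19 in high copper, against 2.87 and 1.84 in low copper, so it was slightly below 0 in high copper and well above 0 in low copper (difference -2.64 ± 0.37, limma adjusted p = 0.224). DAN1, a cell wall mannoprotein made under anaerobic conditions, was below 0 on all 4 arrays and further so in high copper, at -2.47 and -2.91 in high copper, against -0.99 and -1.13 in low copper (difference -1.63 ± 0.19, limma adjusted p = 0.224). INO1, the enzyme that starts inositol synthesis, was likewise low everywhere, at -2.54 and -2.34 in high copper, against -1.23 and -1.51 in low copper (difference -1.07 ± 0.16, limma adjusted p = 0.224). AQR1, a plasma membrane transporter linked to resistance to weak acids and drugs, stood at -1.23 and -1.21 in high copper, against -0.09 and -0.12 in low copper. Its ratio was low in high copper and near 0 in low copper, with little spread in either (difference -1.12 ± 0.10, limma adjusted p = 0.224).

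PBI1 was below 0 on all 4 arrays and further so in high copper, at -1.79 and -1.79 in high copper, against -0.59 and -0.66 in low copper (difference -1.17 ± 0.11, limma adjusted p = 0.224). AGA1, which anchors the a-agglutinin of mating cells in the wall, crossed 0, at -0.68 and -0.80 in high copper, against 0.52 and 0.36 in low copper (difference -1.18 ± 0.12, limma adjusted p = 0.224). YEL075C, a subtelomeric open reading frame, stood at -0.15 and -0.04 in high copper, against 0.88 and 0.99 in low copper (difference -1.03 ± 0.12). DMC1, the recombinase of meiosis, stood at -0.52 and -0.35 in high copper and above 0 on both low copper arrays (difference -1.08 ± 0.27), and STR3, which makes homocysteine from cystathionine, at 0.09 and -0.08 in high copper, against 1.51 and 0.93 in low copper. SNG1, linked to drug resistance, and TIM22, a subunit of the protein import machinery of the mitochondrial inner membrane, separated through high values in low copper that were more than 1 apart, 0.79 and 1.98 for SNG1 and 1.13 and 2.24 for TIM22. A second spot of TIM22, with values on the repeat arrays alone, went the other way, at 2.69 on the high copper repeat array, against 0.44 on the low copper repeat array. YNR071C owed its difference of -1.69 mostly to the low copper array, since the high copper arrays read -0.12 and 0.11 and the low copper repeat array 0.37, and SEC16, a scaffold of COPII coats, owed its difference of -1.57 to the high copper repeat array (-2.01, against 0.12 on the high copper array). A second spot of SEC16 held values in high copper alone and read -0.46 on the high copper array and 2.16 on its repeat, so the SEC16 spots had opposite signs there.

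**Figure D2:**
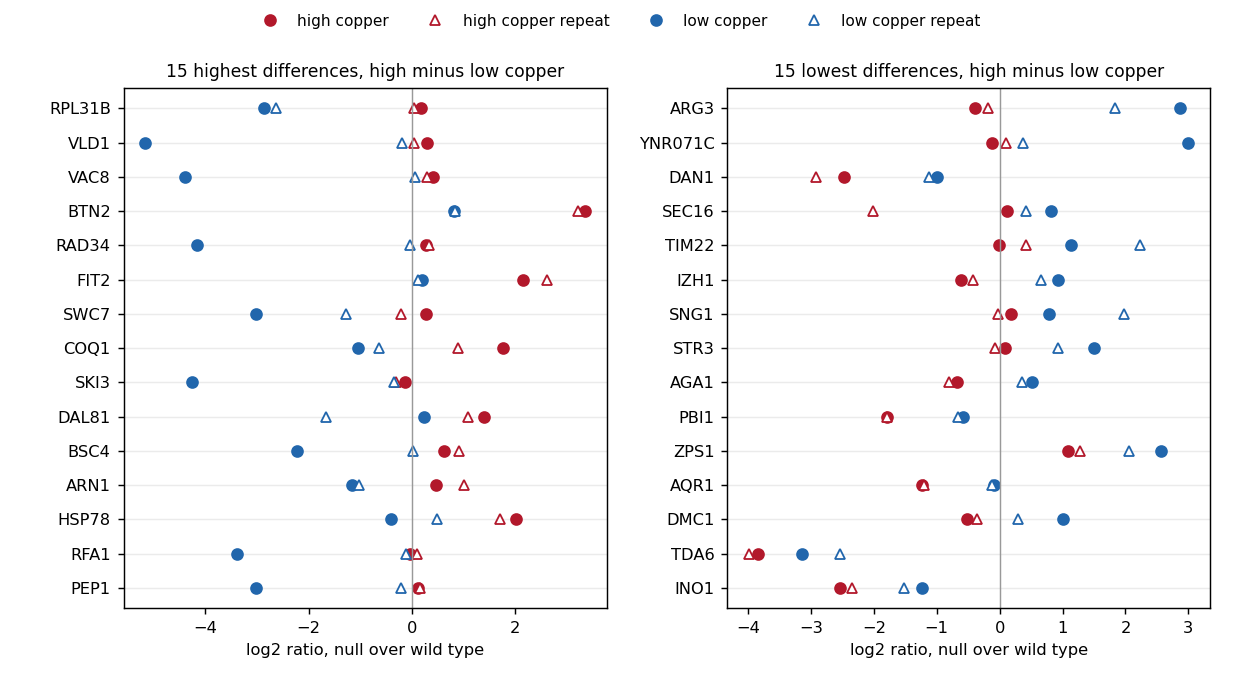
Log2 ratio of null over wild type on each array for the 15 genes with the highest (left) and the 15 with the lowest (right) difference among genes outside the displaced run. Red marks high copper, blue low copper, circles the arrays and open triangles their repeats. The single blue circles at -3.02 to -5.16 in VLD1, VAC8, RAD34, SKI3, RFA1 and PEP1 stand far from the other 3 points, while BTN2, FIT2, AQR1 and PBI1 show 2 tight pairs.

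Chaperone genes under the heat shock factor Hsf1 had higher ratios in high copper almost throughout. Hsf1 drives the genes of Hsp70, Hsp90 and Hsp104 chaperones and their partners when unfolded proteins build up. Of 25 genes listed, 24 were tested, and 22 lay above and 0 below, against 25.2% above and 27.0% below among all genes. All 24 differences were positive, with a median of 0.82, where the median of all genes was 0.01. The list medians were 1.05 and 0.82 in high copper, against 0.22 and 0.22 in low copper. In the limma fit 0 members passed after adjustment, and 19 had an unadjusted p under 0.05. Leaving out any 1 array left 22 to 24 of the 24 above, where 34.5% to 43.8% of all genes lay above. A separated gene stays separated on fewer arrays, so this count could not fall. The list was chosen with results of these arrays known and is no independent support for its direction.

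Among the members with the widest gaps, APJ1, an Hsp40 co-chaperone of the nucleus, stood at 2.15 and 2.09 in high copper, against 0.89 and 0.48 in low copper (difference 1.43 ± 0.17, limma adjusted p = 0.224). SSA4, a stress-inducible cytosolic Hsp70, stood at 1.31 and 1.31 in high copper, against 0.07 and -0.01 in low copper. It was thus well above 0 on both high copper arrays and near it on both low copper arrays (difference 1.28 ± 0.11, limma adjusted p = 0.224). The next members are given outside the naming rule, with their values already known. FES1, a nucleotide exchange factor for cytosolic Hsp70, stood at 1.99 and 1.73 in high copper, against 0.76 and 0.66 in low copper. HSP104, the disaggregase of the cytosol, stood at 1.34 and 1.17 in high copper, against 0.28 and 0.22 in low copper. HSP82, the inducible Hsp90, stood at 0.72 and 0.85 in high copper, against 0.00 and -0.10 in low copper. Differences of 0.80 to 1.09 were also measured for the Hsp70 genes SSA1 (0.80) and SSA3 (1.09), the Hsp40 genes SIS1 (0.98) and MDJ1 (0.87), the Hsp70-Hsp90 adaptor STI1 (0.92) and the small heat shock protein HSP42 (0.84). Of these 6, only SSA3 had ratios below 0 on both low copper arrays, at -0.91 and -0.33.

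The other stress lists had members on both sides. Of 30 genes of the general stress response under Msn2 and Msn4, 5 above and 9 below were counted, with a median difference of -0.06, against 25.2% above and 27.0% below among all genes. Without centring the count was 11 above and 7 below (median 0.05), where all genes had 38.2% above and 16.7% below (median 0.12). Without the high copper repeat array it was 11 above and 9 below, where all genes had 34.5% above and 35.5% below. The cytosolic catalase CTT1 stood at -0.70 and -0.96 in high copper, against 0.06 and -0.20 in low copper. The glycerol phosphate dehydrogenase GPD1 stood at -0.21 and -0.26 in high copper, against 0.43 and 0.27 in low copper. The glycogen synthase GSY2 had the other direction, at 0.89 and 0.92 in high copper, against 0.39 and 0.26 in low copper. CTT1 and GPD1 were below 0 on both high copper arrays, and GSY2 was above 0 throughout. Of 17 genes of the oxidative stress response under Yap1, 3 lay above and 5 below, among them the peroxiredoxin AHP1 with a difference of -0.90 and the glutathione reductase GLR1 with one of 0.50. The largest difference in size, 1.06, was that of YCF1, a vacuolar transporter of glutathione conjugates, at -0.02 and -0.28 in high copper, against -1.79 and -0.63 in low copper. The difference was 0.48 without the low copper array. It rests on 1 of 3 YCF1 spots, and the other 2 held no value on the low copper array. The proteasome list had 11 genes above and 12 below of 34, with a median of 0.02, and without centring 18 above and 7 below with a median of 0.13, where all genes had 38.2% above and 16.7% below. Of the 34 genes, 4 touch the displaced run. Without them 11 lay above and 8 below of 30, where all genes had 26.4% above and 26.5% below. With the run moved back 11 lay above and 11 below of 34, where all genes had 25.7% and 27.0%. RPN4, the transcription factor that drives proteasome genes, stood at 0.37 and 0.47 in high copper, against -0.02 and -0.02 in low copper. The lid subunit RPN7 stood at 0.17 and 0.19 in high copper, against -0.22 and -0.19 in low copper. Both were tight within each condition, with differences of 0.44 ± 0.11 and 0.39 ± 0.10 and limma adjusted p of 0.257 and 0.262.

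Iron uptake genes under Aft1 and Aft2, the factors that respond to low iron, also tended to lie above. Of 25 genes listed, 24 were on the array and 21 tested, of which 14 lay above and 2 below, with a median of 0.27. The shares of all genes were 25.2% above and 27.0% below. No member passed the limma threshold, and 8 had an unadjusted p under 0.05, all with positive differences. The list medians were 0.25 and 0.25 in high copper, against 0.00 and -0.04 in low copper. Besides FIT2 and ARN1, TIS11, which promotes decay of mRNAs of iron-using enzymes, stood at 1.60 and 1.40 in high copper, against -0.13 and -0.28 in low copper (difference 1.70 ± 0.13, limma adjusted p = 0.224). ARN2, another transporter of siderophore-bound iron, stood at 0.53 and 0.72 in high copper, against -0.21 and -0.26 in low copper (difference 0.86 ± 0.12, limma adjusted p = 0.224). TIS11, ARN1 and ARN2 had ratios above 0 on both high copper arrays and below 0 on both low copper arrays.

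Further iron genes with smaller differences were picked with their values known. FET3, the copper-dependent ferroxidase, stood at 1.16 and 0.84 in high copper, against 0.34 and 0.12 in low copper (difference 0.77 ± 0.17). Its partner permease FTR1 stood at 0.35 and 0.38 in high copper, against 0.17 and 0.18 in low copper (difference 0.19 ± 0.10). Both were above 0 on all 4 arrays. ENB1, the transporter of the siderophore enterobactin, stood at 0.99 and 1.08 in high copper, against 0.46 and -0.05 in low copper (difference 0.83 ± 0.20). When any 1 array was left out, 14 to 17 of the 21 genes lay above and 2 to 6 below, the 6 without the low copper repeat array. Neither count could fall, since a separated gene stays separated on fewer arrays. On 3 arrays 34.5% to 43.8% of all genes lay above and 35.5% to 41.9% below.

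**Figure D3:**
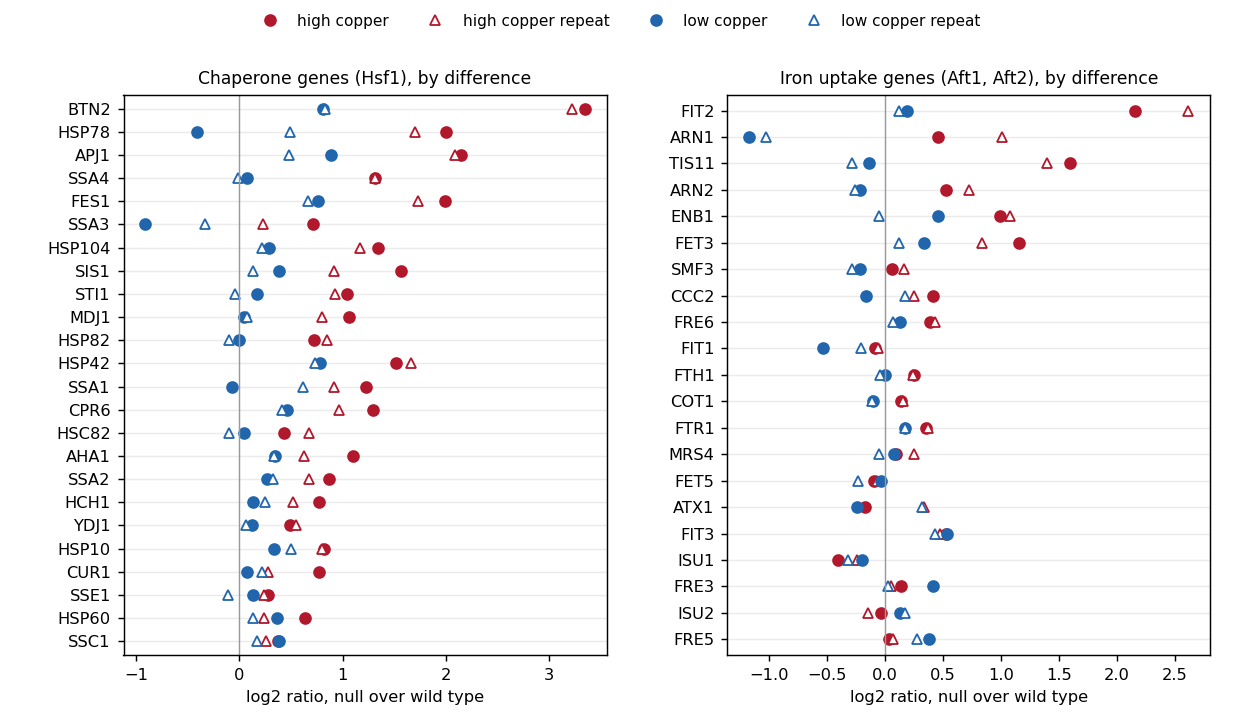
Log2 ratio of null over wild type on each array for the 24 tested chaperone genes (left) and the 21 tested iron uptake genes (right), ordered by difference from the highest at the top. Red marks high copper, blue low copper, circles the arrays and open triangles their repeats. In 22 chaperone genes and 14 iron genes both red points lie to the right of both blue points, and genes whose points overlap are drawn to complete the lists.

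In the Ace1 and Mac1 lists of the copper response itself, differences ran from -0.50 to 0.59. Of the 4 genes of copper detoxification under Ace1, 3 lay above and 0 below, with a median of 0.14. The shares of all genes were 25.2% above and 27.0% below. CUP1-1 and CUP1-2, near-identical copies of the metallothionein gene that cannot count as separate measurements, stood at 0.76 and 0.85 in high copper, against 0.65 and 0.59 in low copper (CUP1-1) and at 0.72 and 0.71 in high copper, against 0.68 and 0.55 in low copper (CUP1-2). Their ratios were above 0 on all 4 arrays and their differences were 0.19 ± 0.11 and 0.10 ± 0.11. CRS5, a metallothionein-like gene, crossed 0, at 0.20 and 0.36 in high copper, against -0.38 and -0.24 in low copper (difference 0.59 ± 0.13, limma adjusted p = 0.256).

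Copper uptake genes under Mac1 leaned the other way, with 0 above and 3 below of 5 tested genes and a median of -0.32. All genes had 25.2% above and 27.0% below. CTR1, the high-affinity copper transporter of the plasma membrane, stood at -0.20 and -0.17 in high copper, against 0.39 and 0.24 in low copper (difference -0.50 ± 0.12, limma adjusted p = 0.257). IRC7 was below 0 on all 4 arrays, at -0.68 and -0.77 in high copper, against -0.21 and -0.38 in low copper, and REE1 stood at 0.05 and -0.08 in high copper, against 0.50 and 0.12 in low copper. Among 10 copper chaperones and transporters of organelles 2 lay above and 2 below. The vacuolar copper exporter CTR2 stood at 0.03 and 0.06 in high copper, against 0.62 and 0.29 in low copper. The cytochrome oxidase assembly factor COX11 stood at 0.14 and 0.26 in high copper, against 0.52 and 0.39 in low copper. Both were nearer to 0 in high copper. CCC2, which pumps copper into the secretory pathway where Fet3 receives it, stood at 0.42 and 0.25 in high copper, against -0.16 and 0.17 in low copper. Its other spot, with no value on the low copper array, read 0.34 and -0.16 in high copper, against 0.10 on the low copper repeat array. PCA1, a cadmium and copper pump, had the widest difference of the list (1.25 ± 0.34, limma adjusted p = 0.267), but only 1 of its 2 spots separated, and the other read 0.19 and 0.32 in high copper, against 0.32 and 0.00 in low copper. Without centring, the median of this last list was 0.07 in place of -0.04.

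The 15 genes known from publications to depend on Haa1 had median ratios of -1.85 and -0.73 in high copper, against -1.37 and -1.33 in low copper. The -0.73, of the high copper repeat array, takes in 3 members with displaced spots. These members read -0.33 to -0.30 there, against -2.67 to -1.85 on the high copper array. Of the 15 genes, 7 lay below and 1 above, with a median difference of -0.24, against 27.0% below and 25.2% above among all genes. Without centring 5 lay below and 2 above, with a median of -0.13, and without the low copper repeat array 7 below and 4 above, with a median of -0.14. All genes had 16.7% below and 38.2% above without centring, and 40.4% below and 43.8% above without that array. Some of these publications used null strains of this gene, so the list is no independent support for a low ratio. TDA6 had the lowest difference of the list, at -3.85 and -3.98 in high copper, against -3.14 and -2.54 in low copper (difference -1.07 ± 0.23, limma adjusted p = 0.256). YLR297W stood at -2.60 and -2.39 in high copper, against -1.66 and -1.64 in low copper. GPG1, a protein that binds the G protein alpha subunit Gpa2, stood at -0.97 and -1.02 in high copper, against -0.58 and -0.48 in low copper. TPO2, a polyamine exporter, and GRE1, a stress-induced hydrophilin, both picked with their values known, stood at -3.40 and -3.55 in high copper, against -3.25 and -2.79 in low copper (TPO2) and -1.51 and -1.76 in high copper, against -1.30 and -1.33 in low copper (GRE1). Their differences of -0.46 and -0.32 were small beside ratios of that size. YRO2, a membrane protein related to Hsp30, was the 1 member above, at -2.28 and -2.88 in high copper, against -3.11 and -3.58 in low copper (difference 0.77 ± 0.28, limma adjusted p = 0.322). With the displaced run moved back, the list had 1 above and 9 below, with a median difference of -0.32.

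The PAU family separated in the direction opposite to the chaperones. These genes encode small seripauperin mannoproteins of the cell wall that are made without oxygen, lie mostly near telomeres, and are so alike in sequence that their spots cannot be taken as separate measurements. Of 24 genes listed, 22 were tested, and 0 lay above and 19 below, with a median difference of -0.82. All genes had 25.2% above and 27.0% below. The list medians were -0.47 and -0.61 in high copper, against 0.41 and 0.11 in low copper, so the family was below wild type in high copper and slightly above it in low copper. PAU13 stood at -0.59 and -0.65 in high copper, against 0.45 and 0.23 in low copper (difference -0.96 ± 0.13). PAU14 stood at -0.60 and -0.59 in high copper, against 0.43 and 0.21 in low copper. PAU20 stood at -0.64 and -0.60 in high copper, against 0.37 and 0.16 in low copper. PAU2 stood at -0.76 and -0.85 in high copper, against -0.03 and 0.21 in low copper, and it was the 1 of these 4 with a low copper value below 0. The limma adjusted p of these 4 genes ran from 0.224 to 0.226, and 18 of the 22 had an unadjusted p under 0.05.

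Other wall mannoproteins of anaerobic or cold conditions, a list that shares 2 genes with the family, had 0 genes above and 6 below of 9. The shares of all genes were 25.2% above and 27.0% below. Besides DAN1, TIP1 stood at 0.76 and 0.47 in high copper, against 1.40 and 1.39 in low copper, so it was higher in null cells throughout and less so in high copper (difference -0.78 ± 0.14, limma adjusted p = 0.256). TIR3 was below 0 on all 4 arrays, at -1.01 and -1.01 in high copper, against -0.32 and -0.63 in low copper (difference -0.54 ± 0.15). Genes that the repressor Rox1 holds down in air had 1 above and 3 below of 7. HEM13, an oxygen-requiring enzyme of heme synthesis, stood at -0.40 and -0.24 in high copper, against 0.55 and 0.48 in low copper (difference -0.84 ± 0.12, limma adjusted p = 0.224). OLE1, the fatty acid desaturase, stood at -0.08 and -0.20 in high copper, against 0.87 and 0.44 in low copper (difference -0.79 ± 0.18). Both were below 0 in high copper and above 0 in low copper.

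Zinc genes under Zap1, the factor that responds to low zinc, had 0 members above and 7 below of 11, with a median of -0.46. All genes had 25.2% above and 27.0% below. IZH1, a membrane protein of the adiponectin receptor family tied to zinc homeostasis, stood at -0.61 and -0.43 in high copper, against 0.92 and 0.65 in low copper (difference -1.31 ± 0.15, limma adjusted p = 0.224). ZPS1, a secreted protein of low zinc and high pH, stood at 1.08 and 1.28 in high copper, against 2.57 and 2.06 in low copper. It was above 0 on all 4 arrays, with a lower ratio in high copper (difference -1.13 ± 0.21, limma adjusted p = 0.256). ZRT1, the high-affinity zinc transporter, did likewise, at 0.93 and 0.81 in high copper, against 1.70 and 1.25 in low copper (difference -0.60 ± 0.19). IZH2 stood at -0.53 and -0.29 in high copper, against 0.49 and 0.15 in low copper. ZAP1 itself, picked with its values known, stood at -0.42 and -0.63 in high copper, against 0.99 and -0.19 in low copper, where the low copper arrays were more than 1 apart.

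**Figure D4:**
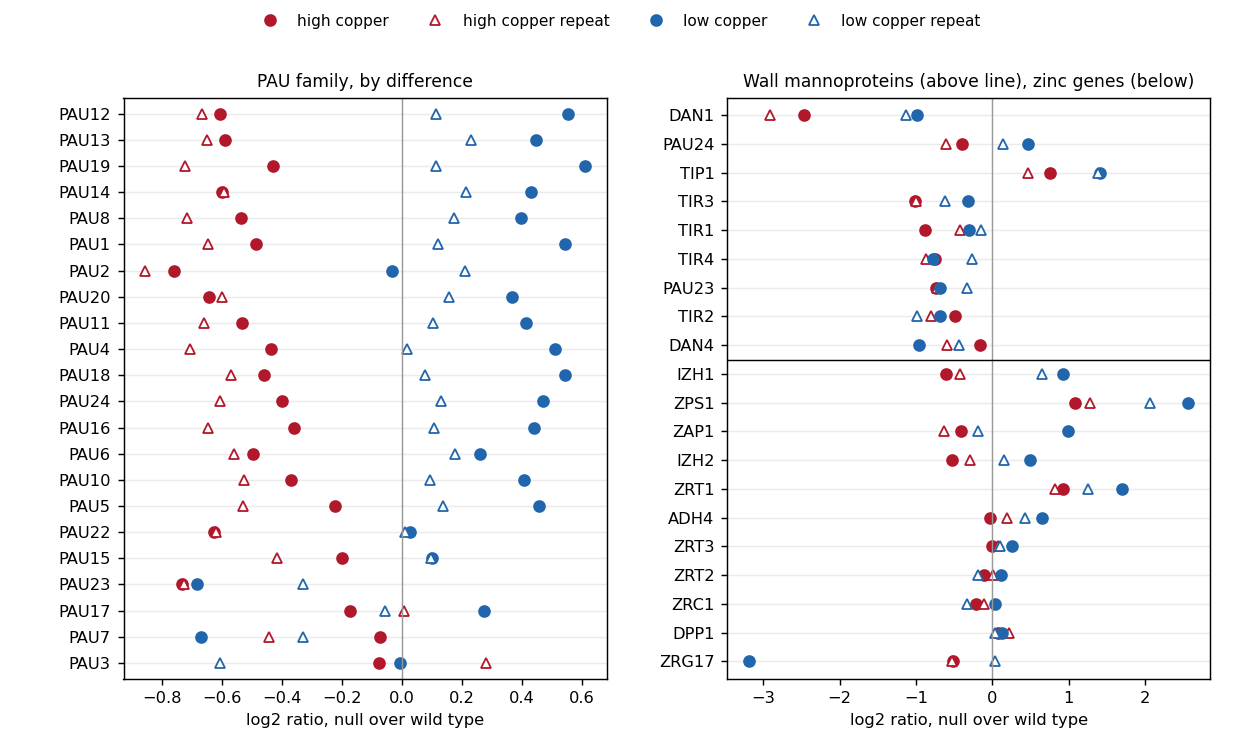
Log2 ratio of null over wild type on each array for the 22 tested genes of the PAU family (left) and for 9 wall mannoproteins and 11 zinc genes (right, above and below the line), ordered by difference from the lowest at the top of each list. Red marks high copper, blue low copper, circles the arrays and open triangles their repeats. In 19 PAU genes both red points lie to the left of both blue points.

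Ribosomal protein genes leaned below by small amounts. Of 132 tested, 71 lay below and 5 above, with a median difference of -0.20, and many belong to pairs of near-identical copies. All genes had 27.0% below and 25.2% above. The list medians were 0.18 and 0.12 in high copper, against 0.42 and 0.26 in low copper, so null cells were higher than wild type in both. RPP0, of the ribosomal stalk, stood at 0.00 and -0.28 in high copper, against 0.75 and 0.66 in low copper (difference -0.84 ± 0.14, limma adjusted p = 0.256). RPS11A, of the small subunit, stood at -0.32 and -0.12 in high copper, against 0.56 and 0.39 in low copper, and it was below 0 in high copper. RPL34A of the large subunit stood at 0.22 and 0.09 in high copper, against 0.80 and 0.63 in low copper. RPS29B of the small subunit stood at 0.26 and 0.16 in high copper, against 0.73 and 0.67 in low copper. All 4 of these genes were above 0 on both low copper arrays. RPL31B, described above, was the exception in size, and the other 4 genes above had differences of at most 0.27. Without centring, 46 lay below and 17 above, with a median of -0.10 beside 0.12 for all genes. All genes then had 16.7% below and 38.2% above.

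Genes that build ribosomes lay on both sides, with 16 above and 27 below of 89 and a median of -0.03, against 25.2% above and 27.0% below among all genes. Without centring 26 lay above and 14 below, with a median of 0.08. All genes then had 38.2% above, 16.7% below and a median of 0.12. Without the high copper array 32 lay above and 31 below, where all genes had 35.4% above and 35.7% below. Without the low copper repeat array 35 lay above and 33 below, where all genes had 43.8% above and 40.4% below. NOP2, a methyltransferase of 25S rRNA, had the widest gap, at -0.89 and -0.82 in high copper, against -0.04 and 0.04 in low copper (difference -0.85 ± 0.11, limma adjusted p = 0.224). EMG1, another rRNA methyltransferase, stood at -0.23 and -0.17 in high copper, against 0.36 and 0.20 in low copper. ESF1 and UTP6, of the small subunit processome, were below 0 throughout and further so in high copper, with differences of -0.42 ± 0.11 and -0.43 ± 0.12. In the other direction, RRP5 stood at -0.22 and -0.21 in high copper, against -1.67 and -0.75 in low copper. NAN1 stood at 0.13 and 0.12 in high copper, against -0.64 and -0.25 in low copper. The low copper array was the lower of its pair in both. RNA polymerases I and III had 2 above and 7 below of 22, with the polymerase III subunit RPC82 at -0.68 and -0.74 in high copper, against 0.07 and -0.24 in low copper (difference -0.62 ± 0.15). Mitochondrial ribosomal proteins had 8 above and 23 below of 67, and 16 above and 15 below without centring, where their median of -0.09 was 0.02. MRP4 of the small subunit stood at -0.22 and -0.52 in high copper, against 0.47 and 0.28 in low copper. MRPL4 of the large subunit stood at -0.24 and -0.29 in high copper, against 0.74 and 0.21 in low copper, while RSM25 lay above, at 0.31 and 0.40 in high copper, against -1.44 and -0.39 in low copper.

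Genes of respiration lay below more often than above. Of 24 genes of the respiratory chain 0 lay above and 11 below, with a median of -0.17, against 25.2% above and 27.0% below among all genes, and 3 of the 24 touch the displaced run. Without centring 3 lay above and 9 below, with a median of -0.065 beside 0.12 for all genes. SDH1, the flavoprotein of succinate dehydrogenase, stood at -0.33 and -0.41 in high copper, against 0.59 and 0.39 in low copper (difference -0.86 ± 0.13, limma adjusted p = 0.224). CYC1, the main cytochrome c gene, stood at 0.23 and 0.20 in high copper, against 0.98 and 0.69 in low copper. QCR8, a subunit of complex III, stood at 0.07 and 0.05 in high copper, against 0.73 and 0.53 in low copper. CYC1 and QCR8 were above 0 throughout, and less so in high copper. SDH2, the iron-sulfur subunit of succinate dehydrogenase, and COX7 of cytochrome oxidase, also picked with their values known, had differences of -0.53 ± 0.13 and -0.38 ± 0.16. The ATP synthase list had 0 above and 6 below of 12, with the epsilon subunit gene ATP15 at -0.13 and 0.23 in high copper, against 0.59 and 0.39 in low copper. The TCA and glyoxylate cycle list, by contrast, had 1 above and 2 below of 14, at a median of -0.01, and 5 above and 1 below without centring. All genes had 38.2% above and 16.7% below without centring.

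Genes of amino acid synthesis lay on both sides. Of 39 genes under Gcn4, the activator of amino acid synthesis, 8 lay above and 16 below, with a median of -0.07, and without centring 14 above and 11 below, with a median of 0.04. All genes had 25.2% above and 27.0% below, and 38.2% and 16.7% without centring. CPA1, a subunit of the carbamoyl phosphate synthetase of arginine synthesis, stood at -0.07 and -0.02 in high copper, against 0.92 and 0.76 in low copper (difference -0.88 ± 0.12, limma adjusted p = 0.224). ARG8, acetylornithine aminotransferase, stood at 0.15 and 0.26 in high copper, against 1.13 and 0.74 in low copper. ARG1, argininosuccinate synthetase, stood at -0.14 and -0.11 in high copper, against 0.48 and 0.33 in low copper. These 3 lay below, as ARG3 did, and had gaps among the widest of the list. Of the branched-chain pathway, the reductoisomerase ILV5 stood at -0.99 and -0.81 in high copper, against 0.15 and 0.04 in low copper (difference -0.99 ± 0.13, limma adjusted p = 0.224). ILV6, a regulatory subunit, stood at -0.20 and -0.45 in high copper, against 0.83 and 0.20 in low copper. Both were below 0 in high copper and above 0 in low copper. Sulfur amino acid genes under Met4 had 3 above and 13 below of 25, with a median of -0.15. Without centring 6 lay above and 10 below, with a median of -0.046. With the genes of the displaced run left out 3 lay above and 11 below of 23. All genes then had 26.4% above and 26.5% below. MET17, which makes homocysteine from sulfide and is also a marker of laboratory strains, stood at 0.24 and 0.13 in high copper, against 1.09 and 0.98 in low copper (difference -0.85 ± 0.12, limma adjusted p = 0.224). SAM3 and MMP1, transporters of S-adenosylmethionine and S-methylmethionine, had differences of -0.91 ± 0.28 and -0.69 ± 0.18.

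Nucleotide lists were small. The shares of all genes were 25.2% above and 27.0% below, and 38.2% and 16.7% without centring. Purine synthesis had 2 above and 7 below of 14 (3 and 2 without centring), with ADE4, its first committed enzyme, at -1.26 and -1.02 in high copper, against -0.27 and -0.13 in low copper (difference -0.94 ± 0.14, limma adjusted p = 0.224). Pyrimidine synthesis had 2 above and 1 below of 9, with the kinase URA6 at -0.53 and -0.33 in high copper, against 0.25 and 0.44 in low copper. URA2, the first enzyme of the pathway, stood at 0.71 and 0.62 in high copper, against 0.39 and 0.04 in low copper. Among 7 marker genes of laboratory strains 1 lay above and 4 below. One of them was LEU2, at -0.34 and -0.42 in high copper, against 0.41 and 0.19 in low copper.

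Sugar and energy genes had no common direction. All genes had 25.2% above and 27.0% below, and 38.2% and 16.7% without centring. Hexose transporters had 2 above and 6 below of 14 (4 and 4 without centring), with HXT5, a transporter of slow growth, at -1.16 and -0.95 in high copper, against -0.29 and -0.20 in low copper. HXT3, a low-affinity transporter, stood at -1.10 and -1.24 in high copper, against -0.11 and -0.66 in low copper. Glycolysis and fermentation had 6 above and 6 below of 19, and 11 above and 6 below without the low copper array. Without that array all genes had 37.2% above and 41.9% below. PDC1, the main pyruvate decarboxylase, stood at -0.19 and -0.58 in high copper, against 0.66 and 0.32 in low copper (difference -0.87 ± 0.20). The glyceraldehyde phosphate dehydrogenase TDH2 stood at -0.21 and -0.44 in high copper, against 0.44 and 0.03 in low copper. Both values of each gene were below 0 in high copper and above it in low copper. Vacuolar ATPase genes had 3 above and 5 below of 16 (6 and 4 without centring), with VMA7 at -0.01 and -0.15 in high copper, against 0.62 and 0.56 in low copper. VMA4 stood at -0.34 and -0.37 in high copper, against 0.23 and 0.14 in low copper.

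Lipid and phosphate lists were mixed as well. The shares of all genes were 25.2% above and 27.0% below, and 38.2% and 16.7% without centring. Ergosterol synthesis had 6 above and 10 below of 26 (10 and 9 without centring), with ERG28, a scaffold of the pathway, at -0.86 and -0.72 in high copper, against 0.22 and 0.11 in low copper (difference -0.96 ± 0.12, limma adjusted p = 0.224). ERG24, a sterol reductase, stood at -0.70 and -0.78 in high copper, against 0.12 and -0.38 in low copper. Phospholipid genes under Ino2 and Ino4 had 4 above and 6 below of 19 (5 and 4 without centring), led by INO1. Phosphate genes under Pho4 had 2 above and 4 below of 15, and subunits of 1 complex went both ways. Of the polyphosphate polymerase, VTC3 stood at 1.23 and 1.60 in high copper, against 0.33 and 0.61 in low copper. VTC2 stood at 0.38 and 0.38 in high copper, against 0.12 and -0.04 in low copper, while VTC1 lay below, at 1.03 and 1.09 in high copper, against 1.33 and 1.60 in low copper. GIT1, a permease of glycerophosphoinositol, stood at -0.07 and 0.10 in high copper, against 1.13 and 0.66 in low copper.

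The remaining lists are given by their counts and widest members, beside 25.2% above and 27.0% below among all genes. Drug resistance genes under Pdr1 had 2 above and 2 below of 10, with the lysophosphatidic acid acyltransferase ICT1 (-0.95) and RSB1 (-0.53) below and the multidrug pump SNQ2 (0.49) above. The SNQ2 value rests on 1 of 4 spots, and another read 0.33 and 0.67 in high copper, against 1.73 on the low copper repeat array. Pheromone response genes had 2 above and 8 below of 15, and KAR4, a regulator of karyogamy genes, stood at -0.74 and -0.73 in high copper, against -0.01 and -0.17 in low copper. Histone genes had 1 above and 6 below of 10, with the H2B gene HTB1 at -0.70 and the H1 gene HHO1, the 1 above, at 0.54. One HHO1 spot was above 0 on all 4 arrays, at 0.35 and 0.40 in high copper, against 0.19 and 0.31 in low copper, and the other, at 0.44 and -0.12 in high copper, against -0.94 and -0.64 in low copper, gave most of that difference. Nitrogen catabolite genes had 2 above and 5 below of 15, with the ammonium permease MEP3 at -0.52. Biotin genes had 0 above and 1 below of 3, the biotin synthase BIO2 at -0.54, and thiamine genes had 2 above and 5 below of 15.

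**Figure D5:**
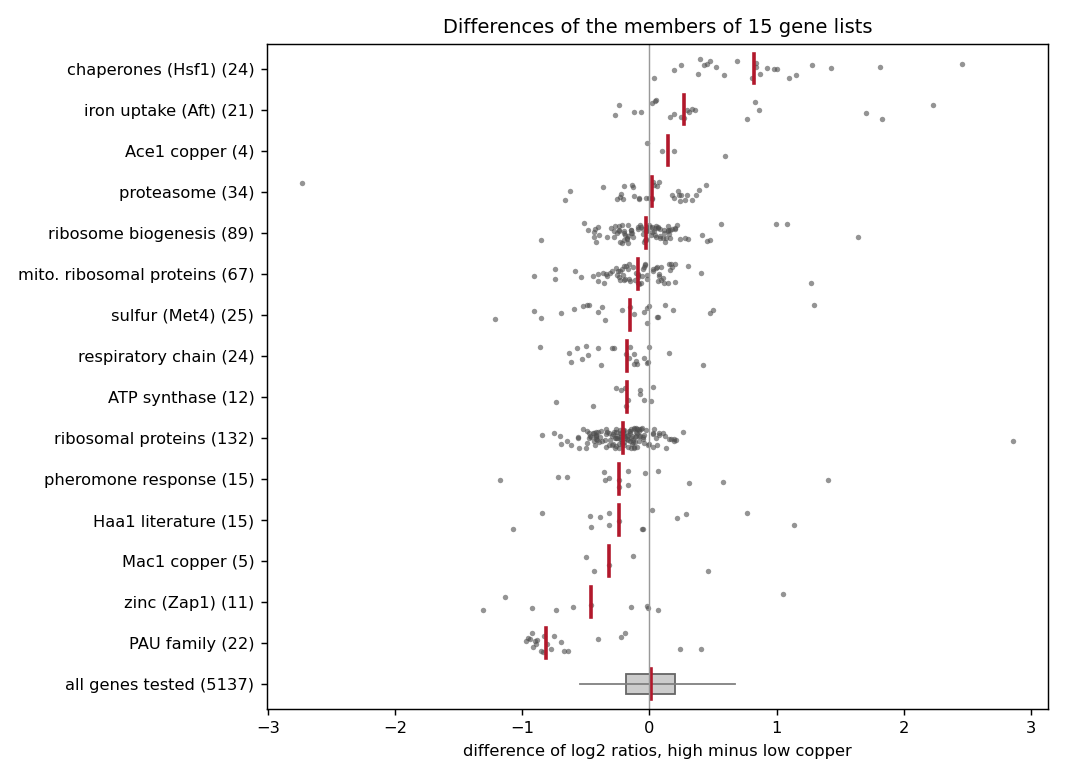
Difference of log2 ratios, high minus low copper, of each tested member (points) of 15 gene lists, with the number tested in brackets and the median as a red line. The bottom row gives all 5137 genes as a box from the lower to the upper quartile (-0.19 to 0.20) with a line from the 5 to the 95 percentile (-0.54 to 0.67). The medians run from 0.82 for the chaperones to -0.82 for the PAU family.

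Genes of the displaced run took other values once the run was moved back. With the deposited positions, RET2, a subunit of the COPI coat, stood at -0.54 and -2.64 in high copper, against 0.48 and 0.65 in low copper, because the spot in the run read -5.26 on the high copper repeat array. With the run moved back it stood at -0.54 and -0.11 in high copper, against 0.48 and 0.64 in low copper, and the difference was -0.89 in place of -2.15. CWP1, a cell wall mannoprotein, had a difference of -1.61 as deposited and of -0.95 moved back, where it stood at 0.25 and 0.52 in high copper, against 1.36 and 1.31 in low copper. RPS15, a ribosomal protein of the small subunit, had a deposited difference of -0.75 and, moved back, of -1.05, at -0.35 and -0.57 in high copper, against 0.55 and 0.64 in low copper. PUP1, a catalytic subunit of the proteasome, stood at -0.74 and -0.74 in high copper, against 0.38 and 0.07 in low copper, with a difference of -0.96 in place of -0.62. The limma adjusted p of these 4 genes, with the run moved back, ran from 0.19 to 0.224. The 5 highest differences in the run, 0.89 to 1.23 once moved back, rested in 4 genes on a low copper array more than 1 below its repeat.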

How the data were processed

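The series measured null over wild-type RNA ratios on 4 two-channel spotted arrays, 2 per copper condition. The authors deposited 1 value per spot and array, taken here as a log2 ratio, while how it was normalized, in which log base and in which direction, is not given in the sources used here. Here the direction, Cy5 over Cy3, follows the dyes per the labels, and HAA1 lay far below 0 wherever it was measured. Channel intensities were not used here, so signal over background is unknown and the number of arrays limits the precision.

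Of 8832 spots, the platform annotation names 1 gene for 6956, none for 1876 and several for 0, and 6956 names matched RefSeq (assembly R64, used for names only). Medians over the spots with 4 values were subtracted from the arrays, each gene took the mean of its spots, and a mean per condition was fitted to 5137 genes by lmFit and eBayes of limma 3.58.1 (R 4.3.3, 2 residual and 2.22 prior degrees of freedom). The contrast was high minus low copper, adjusted by Benjamini-Hochberg at 0.05, and the fit was tested on simulated data. The ± values are moderated SEs.

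The comparison, its members and the 37 gene lists were chosen with earlier results of these data known, so lists are described by counts and medians and not tested. Genes were named only where both high copper values lay outside the range of the low copper values. They were the 15 highest and 15 lowest differences outside the displaced run, the 5 highest and 5 lowest inside it, up to 4 members of each list with the widest gap (6 for lists of over 40), the 5 genes each way with the smallest limma p, and HAA1. A gene named beyond this is marked as picked with its values known. Alternatives moved the displaced run back or left it out, omitted centring, centred runs of 384 spots, equalised spread, allowed 1 missing array, tested spots singly, added a replicate block and left out each array.

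Arrays carrying the same repeat mark were checked for pairing: their deviations from the condition means correlated at 0.087, which did not pair them.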

Additional observations from a re-analysis of the deposited data

Results flagged for a closer look

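Among the 144 genes named here, 18 had ratios above 0 on both high copper arrays and below 0 on both low copper arrays, and 38 had the opposite signs. Over all 5137 genes this held for 361 and 405 genes. Such signs always separate the conditions, and the named genes were picked for separation. The naming rule thus raised their share among the named genes. The limma test of the difference passed for none of them as deposited, and the opposition of signs itself was not tested. The values in brackets are differences of log2 ratios, high minus low copper.

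Above 0 in high copper and below 0 in low copper were the iron genes ARN1 (1.83), TIS11 (1.70) and ARN2 (0.86), the chaperone genes SSA3 (1.09) and HSP82 (0.84), the proteasome genes RPN4 (0.44) and RPN7 (0.39), and the copper genes PCA1 (1.25) and CRS5 (0.59). The same signs were seen for the ribosomal and nucleolar genes RPL31B (2.86), RSM25 (1.27) and NAN1 (0.56), and for COQ1 (2.18), HHO1 (0.54) and SNQ2 (0.49). For HHO1 the signs are those of the mean of 2 spots, of which 1 was above 0 on all 4 arrays. PCA1 and RPN4 also took them from a mean, and 1 PCA1 spot read 0.32 on the low copper array. Each RPN4 spot was slightly above 0 on 1 low copper array. ARN1, RSM25 and PEP1 took them from the spot measured on all 4 arrays. Another ARN1 spot read -0.11 on the high copper array. Other spots read -0.74 and -0.68 in high copper (RSM25) and 0.57 on the low copper repeat array (PEP1). For SNQ2 the signs are those of 1 of 4 spots, and 2 of the others were below 0 wherever they held a value. In VLD1 (2.85), RAD34 (2.40) and PEP1 (1.76) the low copper array gave most of the difference.

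Below 0 in high copper and above 0 in low copper were the amino acid and sulfur genes ARG3 (-2.64), CPA1 (-0.88), ARG1 (-0.53), ILV6 (-0.84), ILV5 (-0.99), SAM3 (-0.91) and LEU2 (-0.68), the PAU genes PAU13 (-0.96), PAU14 (-0.92) and PAU20 (-0.88), and the zinc genes IZH1 (-1.31) and IZH2 (-0.73). Ribosomal genes of the cytosol and mitochondria with these signs were RPS11A (-0.69), MRPL4 (-0.74), MRP4 (-0.75) and EMG1 (-0.48). Genes of respiration, heme, lipids and sterols were SDH1 (-0.86), SDH2 (-0.53), HEM13 (-0.84), OLE1 (-0.79), ERG28 (-0.96) and ICT1 (-0.95). Fermentation and glycerol genes were PDC1 (-0.87), TDH2 (-0.56) and GPD1 (-0.58), vacuolar ATPase genes VMA7 (-0.67) and VMA4 (-0.54), and transport and cofactor genes CTR1 (-0.50), MEP3 (-0.52) and BIO2 (-0.54).

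The remaining ones were AGA1 (-1.18), DMC1 (-1.08), YEL075C (-1.03), URA6 (-0.78), RET2 (-2.15), PUP1 (-0.62), GAT2 (-1.01) and GSP1 (-1.06), of which RET2 and PUP1 have a spot in the displaced run and take other values once it is moved back.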

How the results depend on the processing

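The count of genes past the limma threshold was 0 as reported. It was 2 with the displaced run moved back and 2 with its genes left out, and ran from 0 to 743 when 1 array was left out (22 without the low copper array, 743 without its repeat). With 3 arrays the complete pair alone gave the spread, and the lone array was assumed to vary like it. The repeat mark only numbered the arrays, and with it as a replicate block 0 genes passed. The crossed pairing was not run. Without centring 1960 genes lay above and 858 below, against 1297 and 1387, and the median of all genes was 0.12 in place of 0.01. The list medians then were 0.25 for Ace1, -0.21 for Mac1, 0.38 for iron uptake, -0.10 for ribosomal proteins and -0.065 for the respiratory chain. Centring by runs of spots gave 0.21 for Ace1 and 0.23 for iron uptake, equal spread gave 0.26 for Ace1, and leaving out the run gave -0.15 for the respiratory chain. When 1 array was left out, medians ran from 0.12 to 0.19 (Ace1), -0.51 to -0.31 (Mac1), 0.22 to 0.28 (iron uptake), 0.68 to 0.82 (chaperones), -0.28 to -0.15 (ribosomal proteins), -0.24 to -0.16 (respiratory chain) and -0.96 to -0.63 (PAU family). Counts above or below on 3 arrays were added after the data were seen, with 34.5% to 43.8% of all genes above and 35.5% to 41.9% below. The cause of these movements was not tested. Of 1612 alternative values for the 144 genes named, 0 changed sign. For the settings with 1 array left out this followed from the naming rule, since a separated gene keeps its direction on any 3 arrays. Allowing 1 missing array, leaving out the run and adding the replicate block kept the difference of each remaining gene as reported. Under these settings, too, no sign could change. With the displaced run moved back 2 of these genes passed the threshold that the reported value missed, and with its genes left out 2 did. The low copper array, with 17.9% of spots missing, limits what low copper values can show.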

Other observations

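Genes outside the lists and the naming rule also separated, and those given here were chosen after their values were seen. ATG41, an autophagy factor, was higher in null cells throughout and more so in high copper, at 2.72 and 2.21 in high copper, against 1.35 and 0.74 in low copper (difference 1.42 ± 0.29, moderated SE, n = 2 arrays each). ROQ1, a partner of the ubiquitin ligase Ubr1 in protein quality control, stood at 1.98 and 1.66 in high copper, against 0.64 and 0.76 in low copper (difference 1.12 ± 0.16). LST8, a subunit of the TOR complexes, stood at 1.43 and 1.28 in high copper, against 0.45 and 0.12 in low copper (difference 1.07 ± 0.16). In the other direction, GSP1, the yeast Ran GTPase, stood at -0.60 and -0.58 in high copper, against 0.75 and 0.20 in low copper (difference -1.06 ± 0.21), and GAT2, a GATA-type zinc finger protein, at -0.49 and -0.64 in high copper, against 0.72 and 0.19 in low copper (difference -1.01 ± 0.22). The limma adjusted p of these 5 genes ran from 0.224 to 0.256.

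Members of the Hsp30 family of plasma membrane proteins went both ways. HSP30, induced by heat and weak acids, was below 0 on all 4 arrays and nearer to 0 in high copper, at -0.74 and -0.66 in high copper, against -1.70 and -1.66 in low copper (difference 0.98 ± 0.11, limma adjusted p = 0.224). YRO2 had the same order, as given above, with a difference of 0.77 ± 0.28. MRH1 was slightly further below 0 in high copper, at -0.98 and -0.93 in high copper, against -0.71 and -0.80 in low copper (difference -0.20 ± 0.11). All 3 were lower in null than in wild-type cells in both copper conditions.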
